A study of Mus musculus with 6 samples.

Results

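The genes described here are 9 mouse genes of the interferon response and of antigen presentation on class II molecules: Irf1, Ido1, Ifit2, Gbp3, Gbp4, Gbp5, Ciita, Cd74 and Ifngr2. They were chosen by name, from a table of 21887 protein-coding genes. A region of the study's list was counted at a gene when its centre lay inside the gene span or within 100 kb of it, which gave 18 regions of the 6502 listed. ATAC-seq, in which a transposase inserts adapters into accessible DNA, was run on 6 libraries of freshly sorted mouse prostate basal stem cells (CD45-, CD31-, Sca-1+, CD49f+), and the list was made from these. The 3 naive libraries were labelled WT and control. The 3 inflamed libraries were labelled POET3, a Prostate Ovalbumin Expressing Transgenic line, and came from prostates taken 7 days after transfer of pre-activated OT-1 splenocytes. By the genotype labels the groups differ in strain, and by the extraction protocol all mice were POET3, so genotype and inflammation cannot be told apart. No age was given, and no label said whether a library came from 1 animal or from pooled animals.

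The deposited list holds chromosome, start and end of each region and no value per library. Because "diff" is part of its name and edgeR is among the tools in the submitters' processing notes, it was read as a list of regions that differed between naive and inflamed cells. It does not say in which group a region was more open. The depth of the libraries is unknown, values carry no replicate error, and the groups could not be tested against each other. Positions, widths and counts are therefore descriptions. The gate excludes cells with CD45, the marker of leukocytes, which in most tissues are the main carriers of class II molecules. With no signal per library, the sorted cell type could not be checked against accessibility at its markers, and the part of remaining leukocytes in the listed regions was not tested.

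Interferon-gamma binds a receptor made of the chains Ifngr1 and Ifngr2, which signals through the kinases Jak1 and Jak2 to transcription factors that bind the gamma-activated site (GAS). Irf1, a gene switched on this way, encodes a factor that binds the interferon-stimulated response element (ISRE). Type I interferons act on the ISRE through a complex that contains Irf9. Among the genes so induced are the guanylate-binding proteins (Gbp), which attack membranes around microbes inside the cell, Ifit2, which restrains viral messages, and Ido1, which degrades tryptophan. Ciita is the master activator of class II genes and is itself inducible by interferon-gamma in epithelial cells. Cd74 is the invariant chain that guards the class II groove.

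Of the 9 members, 8 had at least 1 listed region, and Ifngr2 had none. Among all protein-coding genes, 42.7% had a region by the same rule, and among those whose span lay in the members' range of 8.36 to 51.1 kb the share was 43.7%. Ido1 and Ifit2 had 5 regions each, a number that 1.13% of all protein-coding genes reached. Gbp5 had 3, Irf1 and Gbp3 had 2 each, and Gbp4, Ciita and Cd74 had 1 each. The median was 2.0 regions per member and 0.0 over all protein-coding genes. Of the 18 regions, 14 were 143 bases wide and 4 were 451 bases wide. The smaller width made up 77.8% of the regions at the members and 50.5% of all regions within 100 kb of a protein-coding gene. All 8 members with a region had at least 1 of 143 bases, and 6 of them had no other width. What the widths stand for is not given in the sources used here. The members were chosen with earlier results of these data known, so their counts stand beside the shares over all genes without a test.

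**Figure D1:**
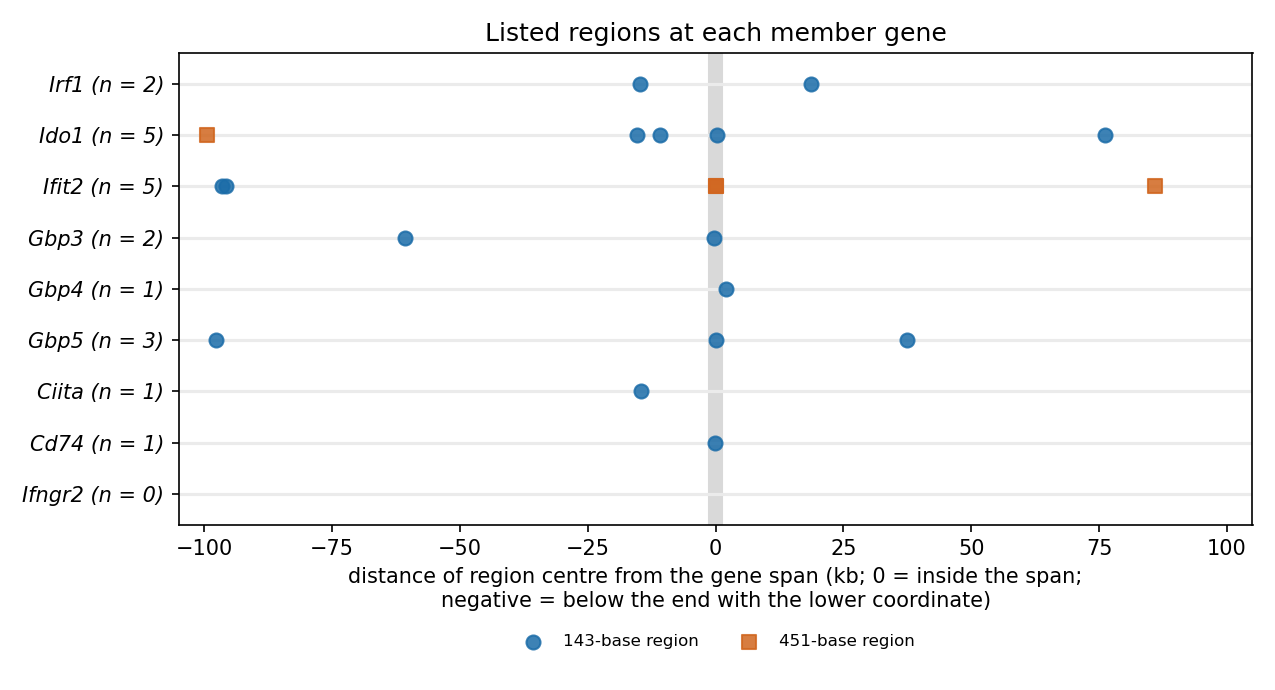
Each row is a member gene with its number of regions, and each point is the centre of a listed region, at its distance in kb from the gene span (0 is inside the span, negative is below the end with the lower coordinate). Blue circles are 143-base regions and orange squares 451-base regions. The 4 regions of 451 bases are at Ido1 (1) and Ifit2 (3), and Ifngr2 has no point.

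The regions nearest to the genes were much closer than the window. At 8 of the 9 members the nearest centre lay inside the span or within 20 kb, where 19.2% of all protein-coding genes had one. At 6 of them it lay inside or within 10 kb, where the share of all genes was 15.2%. The median distance from the span to the nearest region was 0.215 kb over the 9 members and 136 kb over all protein-coding genes. A region was centred within 0.25 kb of a gene end (either end of the span) at Cd74, Ido1, Ifit2 and Gbp3, which is 4 of 9 members. The share of all protein-coding genes was 2.49% at that distance. Within 1 kb the members' count was also 4, beside 3.75% of all protein-coding genes and 3.94% of those in the members' size range. Over all genes, 482 regions lay within 0.25 kb of the end of the gene they belonged to, and 21.2% of these were 143 bases wide. At the members, those of Cd74, Ido1 and Gbp3 were of that width and that of Ifit2 was of 451 bases. Only Ifit2 and Gbp5 had regions centred inside their spans, 2 of 9 members, where 10.2% of all protein-coding genes had one and 7.13% of those in the members' size range.

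**Figure D2:**
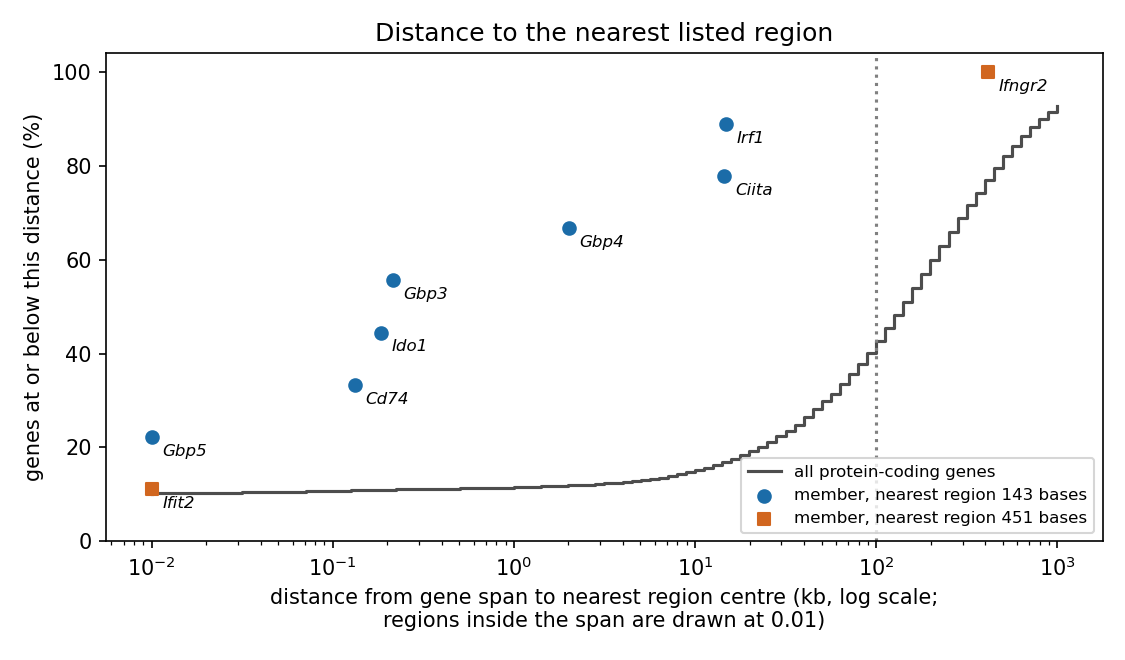
The line gives, for each distance on the log-scaled horizontal axis (kb), the percentage of all protein-coding genes whose nearest listed region is centred no farther than that from the span. The points are the 9 members in order of their distance, blue for a nearest region of 143 bases and orange for 451, and the dotted line marks 100 kb. All members except Ifngr2 lie left of 20 kb, and the line reaches 42.7% at 100 kb.

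The window cut through the outer regions of some genes. Just inside it were a region 99.4 kb from Ido1, one 97.6 kb from Gbp5 and one 96.6 kb from Ifit2. Just outside were a region 107 kb from Cd74 and one 126 kb from Ifit2. Within 100 kb of a member there were 3 to 8 other protein-coding genes, and 8 of the 18 regions had a gene outside the member list as the nearest. The remaining 10 had a member as the nearest protein-coding gene, 8 of them with 143 bases and 2 with 451 bases. Counted this way, the same 8 members had a region, where 16.9% of all protein-coding genes were the nearest gene of at least 1 region.

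The promoters of Ifit2 and Gbp3 were touched by a listed region and can be shown. RefSeq promoter windows (build GRCm38.p6, with the same primary chromosomes as mm10) run from 250 bases before an annotated start to 50 bases from it on, and 5 of the 9 members have them: Irf1, Ifit2, Gbp3, Gbp5 and Ifngr2, with 8 windows in all. Listed regions overlapped windows of 2 of these 5 genes, Ifit2 and Gbp3, where 3.19% of 17492 protein-coding genes with a window had such an overlap. The 250 bases before the start are shown, on the strand of the gene, with the part inside a listed region in capitals. They stand at chr19:34550444-34550693 for Ifit2 and at chr3:142559794-142560043 for Gbp3, both on the + strand.
Ifit2: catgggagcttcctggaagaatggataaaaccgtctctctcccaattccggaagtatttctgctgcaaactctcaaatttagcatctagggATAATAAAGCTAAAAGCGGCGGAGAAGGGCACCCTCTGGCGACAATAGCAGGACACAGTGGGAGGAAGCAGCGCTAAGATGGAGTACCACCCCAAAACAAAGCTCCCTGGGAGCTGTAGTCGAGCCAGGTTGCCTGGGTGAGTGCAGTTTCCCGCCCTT
Gbp3: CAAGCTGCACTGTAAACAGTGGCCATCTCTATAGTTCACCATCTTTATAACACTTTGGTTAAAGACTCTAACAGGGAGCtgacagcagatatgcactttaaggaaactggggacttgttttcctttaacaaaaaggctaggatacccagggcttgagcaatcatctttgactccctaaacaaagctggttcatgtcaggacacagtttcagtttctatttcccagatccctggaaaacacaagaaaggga
At Ifit2 the region took in the 159 bases nearest to the start and ran on across it. At Gbp3 it took in the 79 bases farthest from the start and ended at position -172 from it.

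The promoters of Irf1 and Gbp5 held no listed region. They are shown for their matches to the interferon motifs, with GAS and ISRE matches in capitals, at chr11:53769764-53770013 and chr3:142496684-142496933, both on the + strand.
Irf1: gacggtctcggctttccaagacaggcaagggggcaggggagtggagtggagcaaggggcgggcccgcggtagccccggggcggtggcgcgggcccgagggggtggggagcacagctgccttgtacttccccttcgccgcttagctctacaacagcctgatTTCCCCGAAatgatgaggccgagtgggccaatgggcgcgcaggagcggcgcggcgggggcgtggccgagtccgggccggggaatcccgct
Gbp5: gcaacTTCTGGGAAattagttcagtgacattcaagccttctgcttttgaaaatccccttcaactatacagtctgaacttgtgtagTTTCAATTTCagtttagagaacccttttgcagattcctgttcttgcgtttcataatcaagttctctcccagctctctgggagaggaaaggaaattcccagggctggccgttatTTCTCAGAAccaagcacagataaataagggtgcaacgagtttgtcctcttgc

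The motifs were searched on both strands as GAAA, NN and GAAA in a row for the ISRE core, TTCNNNGAA for GAS, TGANTCA for the AP-1 site, CCAAT for the CCAAT box and the NF-kB consensus, with overlapping matches counted. Of all 21263 promoter windows of protein-coding genes, 3.35% held the ISRE core, 7.69% GAS, 6.99% the AP-1 site, 38.2% the CCAAT box and 4.81% the NF-kB consensus. Of the members' 8 windows, 2 held the ISRE core, 3 GAS, 0 the AP-1 site, 4 the CCAAT box and 3 the NF-kB consensus. Windows of 1 gene are not independent of each other. With the start site as position 0, Irf1 had GAS (TTCCCCGAA) at -90 to -82 and an NF-kB match at -13 to -4. Gbp5 had GAS at -245 to -237 and at -52 to -44, the ISRE core at -165 to -156 and an NF-kB match (GGGAATTTCC, on the opposite strand) at -77 to -68. The first Gbp3 window had 2 overlapping ISRE matches at -45 to -30, written TTTCAGTTTCTATTTC on the gene's strand. They lay 126 bases beyond the end of the listed region. The first Ifit2 window had GAS at -241 to -233, outside the listed region, and no ISRE match. Ifngr2, with no region in reach, had an NF-kB match (GGGACTTTCC, on the opposite strand) at -75 to -66. A match describes the letters only, and no match says only that these letters are not in the window.

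**Figure D3:**
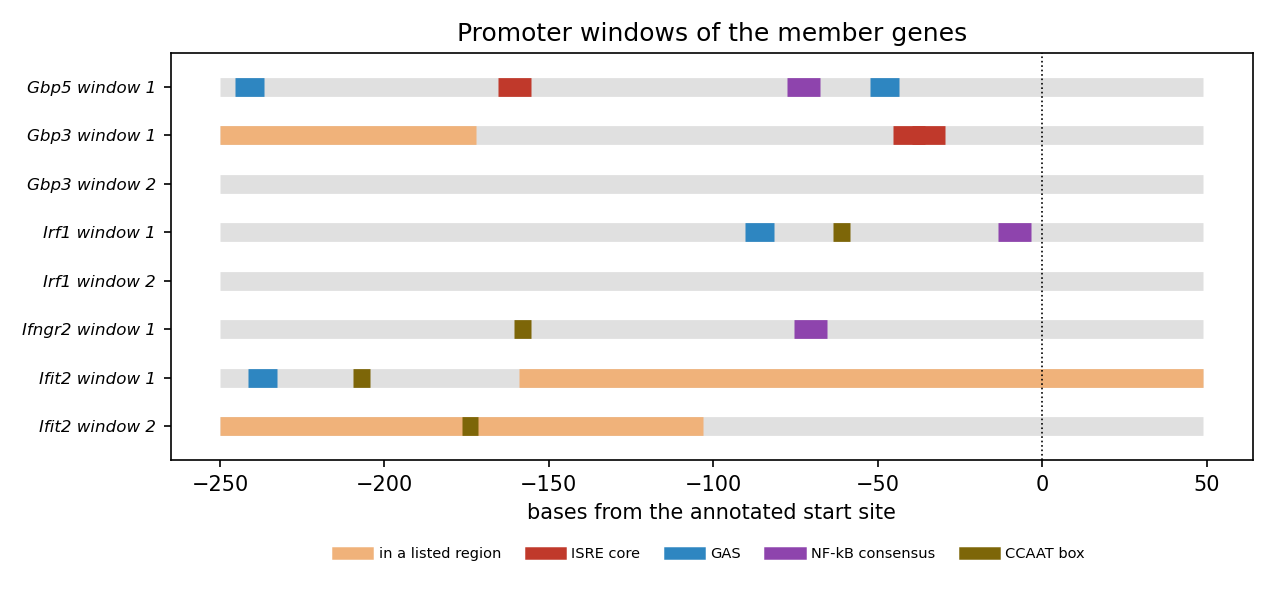
Each bar is a promoter window of a member gene, placed by bases from its annotated start site (0, dotted line), with the part inside a listed region in light orange and motif matches in colour. Windows 1 and 2 are the RefSeq windows of a gene in the table's order. The listed regions cover 209 bases of the first and 148 bases of the second Ifit2 window and 79 bases of the first Gbp3 window, and the red ISRE matches of Gbp3 lie outside the covered part.

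At the receptor, Ifngr2 (NCBI gene 15980, chr16:91547059-91564007), the second chain of the interferon-gamma receptor, had no region within reach. The nearest was centred 415 kb away, measured 451 bases (chr16:91978693-91979143) and lay nearest to Atp5o. Its partner chain Ifngr1 on chromosome 10, which is not a member, had a 451-base region centred 0.085 kb outside the span (chr10:19591639-19592089). By the 100 kb rule Ifngr1 had 2 regions and Ifngr2 had 0. Absence from the list does not show that accessibility at Ifngr2 was equal in the groups, since a region short of the authors' threshold leaves no trace.

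Among the transcription factors, Irf1 (gene 16362, chr11:53770014-53778374) had a 143-base region on either side and none at its start. The first, at chr11:53755151-53755293, was centred 14.8 kb before the start site on the + strand. The other, at chr11:53796893-53797035, lay 18.6 kb beyond the far end. Irf1 was the nearest protein-coding gene to both. The next nearest were Il5, a cytokine gene, at 30.1 kb from the first region and Slc22a5, a carnitine transporter gene, at 67.6 kb from the other. The microRNA gene Mir7671, at 8.38 kb, was nearer to the first region than Irf1. The region beyond the far end fell inside the non-coding gene Gm12216. The centres were 41.7 kb apart, with the whole gene between them.

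The guanylate-binding protein genes sit in a cluster on chromosome 3 and another on chromosome 5, and all their listed regions were 143 bases wide. Gbp3 (gene 55932, chr3:142560016-142573213) had the region at its start, at chr3:142559730-142559872, centred 0.215 kb before the span. Gbp5 (gene 229898, chr3:142496934-142522344), which also helps assemble inflammasomes, had one inside the gene at chr3:142499178-142499320, centred 2.31 kb into the span. These regions were 60.6 kb apart, and each also counted for the other gene by the 100 kb rule. A further region, 97.6 kb before Gbp5 at chr3:142399261-142399403, lay 3.61 kb from Pdlim5, a gene for a scaffold protein of the actin skeleton. Gbp4 (gene 17472, chr5:105115767-105139586) had a single region at chr5:105141539-105141681, centred 2.02 kb above its upper end. The next protein-coding gene, Gbp9, was 31.3 kb from it. Of the 10 Gbp genes matched in the table, 9 had a region by the 100 kb rule, beside 42.7% of all protein-coding genes, but they shared only 4 distinct regions. Of the 10, 3 (Gbp3, Gbp4 and Gbp5) were the nearest gene of a region, beside 16.9% of all protein-coding genes. Gbp7, between Gbp5 and Gbp3, was 9.65 kb from the Gbp3 region. Genes of this family resemble each other, and how reads that match several copies were treated is not given in the sources used here.

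Ifit2 (gene 15958, chr19:34550550-34576534) carried the only 451-base regions of the set that had a member as their nearest gene. The first, at chr19:34550535-34550985, crossed the lower end of the gene with 436 of its bases inside the span. It covered the first annotated start site, from position -159 to position 291. The other, at chr19:34551856-34552306, lay inside the gene 1.53 kb from that end. The gap between their edges was 870 bases. The 3 other regions by the 100 kb rule were nearer to other genes. Regions of 143 bases at chr19:34453883-34454025 and chr19:34454697-34454839, with 671 bases between them, were 19.8 and 19.0 kb from Ch25h, which encodes an interferon-inducible cholesterol hydroxylase. A 451-base region at chr19:34662190-34662640 lay in Ifit1bl1, whose annotated span also encloses Ifit3b, Ifit1bl2 and Ifit1, and was 85.9 kb beyond Ifit2. All 6 matched IFIT genes had a region by the 100 kb rule (all protein-coding genes, 42.7%), drawn from 5 distinct regions. Only Ifit2 and Ifit1bl1 were the nearest gene of one (all protein-coding genes, 16.9%).

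Ido1 (gene 15930, chr8:24584133-24596952) had a 143-base region centred 0.185 kb above its upper end, at chr8:24597066-24597208. The table gives no strand for Ido1. The region also fell inside the non-coding gene Gm51565. Another pair of 143-base regions lay in the neighbouring gene Ido2, which encodes a related enzyme. They stood at chr8:24568765-24568907 and chr8:24573261-24573403, centred 15.3 and 10.8 kb below Ido1 and 4.5 kb apart. The Ido1 and Ido2 regions, all of 143 bases, thus fell within one stretch, with 23.8 kb from the upper Ido2 region to that of Ido1. The outer regions belonged to other genes. A 143-base region at chr8:24673079-24673221 lay in Adam18, 76.2 kb above Ido1, and a 451-base region at chr8:24484465-24484915 lay 99.4 kb below, nearest to Tcim.

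**Figure D4:**
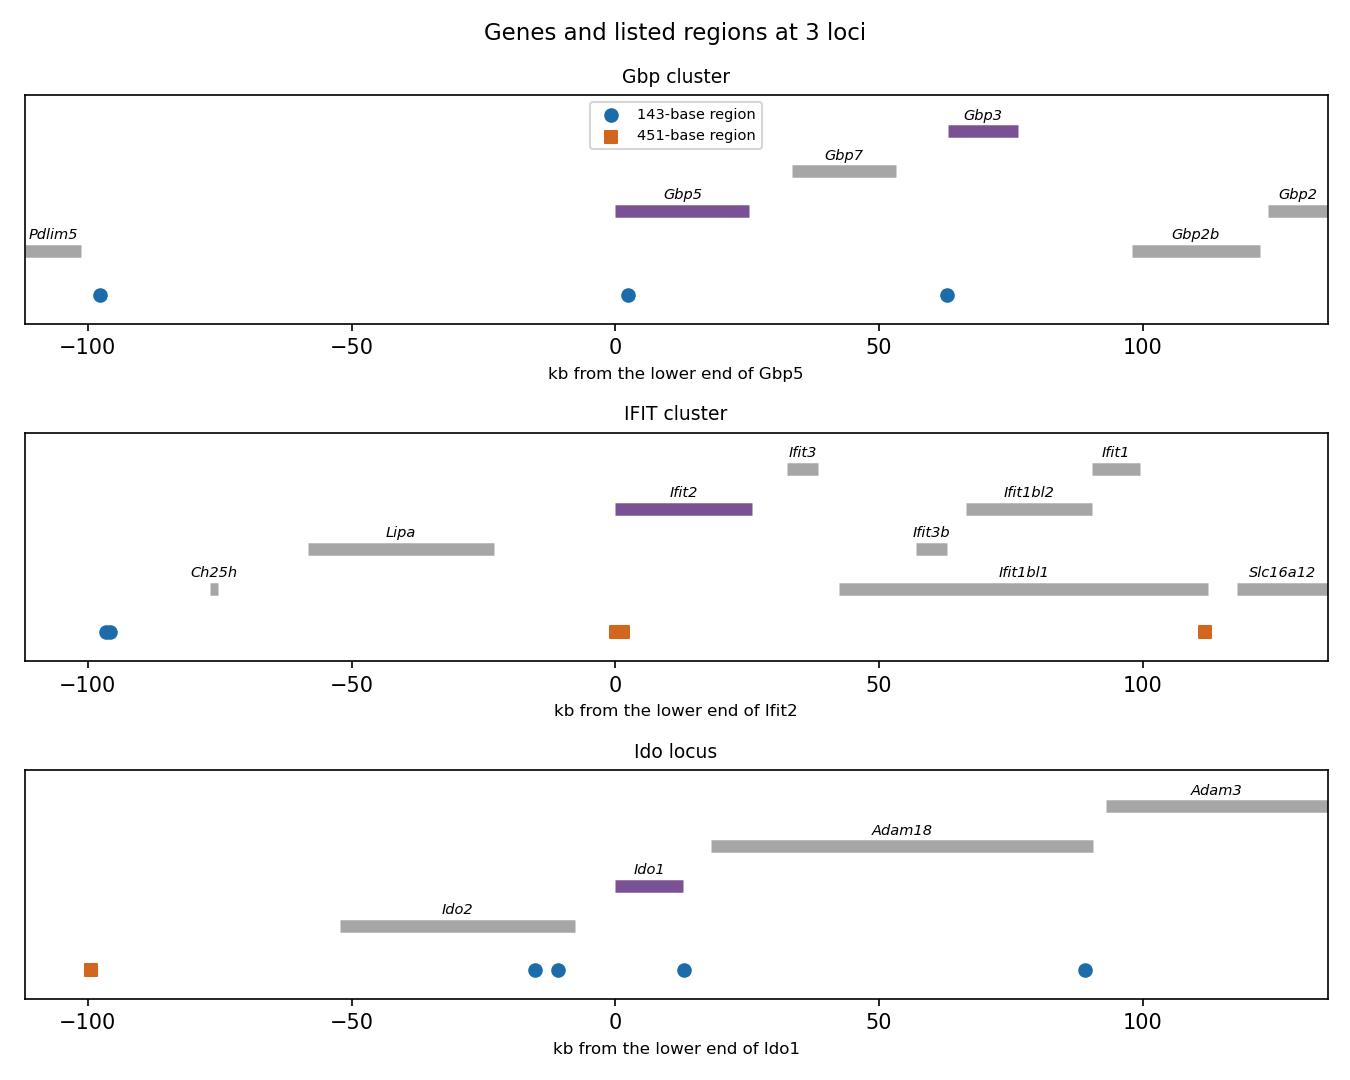
Gene spans (bars, members in purple, other protein-coding genes in grey, stacked only for legibility) and listed regions (blue circles of 143 bases, orange squares of 451 bases) at 3 loci, by distance in kb from the lower end of Gbp5, Ifit2 or Ido1. Only regions by the 100 kb rule of that gene are drawn. The 3 regions at the Gbp cluster are all of 143 bases, the pair of 451-base regions lies at the lower end of Ifit2, and the pair of 143-base regions below Ido1 lies inside Ido2.

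The class II genes each had a single 143-base region, with themselves as the nearest protein-coding gene. At Cd74 (gene 16149, chr18:60803849-60812652) it lay at chr18:60803646-60803788, centred 0.132 kb below the lower end, the closest approach to a gene end among the 9 members. The next protein-coding gene was Tcof1, 10.0 kb away. At Ciita (gene 12265, chr16:10480014-10531064), which is read from several alternative promoters, it lay at chr16:10465411-10465553, centred 14.5 kb below the lower end. The next protein-coding gene was Tvp23a at 18.1 kb, and the non-coding gene Gm41420 was nearer than Ciita, at 4.52 kb. The class II list holds 18 genes, Ciita, Cd74 and regulators and proteases of the pathway included. Of these, 5 had a region by the 100 kb rule, beside 42.7% of all protein-coding genes. Apart from Ciita and Cd74 they were Rfxap, a subunit of the factor that binds class II promoters, at 47.6 kb, H2-Eb1 at 56.5 kb and H2-Aa at 85.4 kb. H2-Eb1 and H2-Aa shared 1 region, which lay nearest to Btnl2. Cd74 was the only gene of the list with a region within 1 kb of a gene end (3.75% of all protein-coding genes), and Ciita and Cd74 were the only ones that were a region's nearest gene (16.9%).

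Across the wider interferon and presentation pathway, 116 genes in 10 lists were matched, and 57 had a region by the 100 kb rule (all protein-coding genes, 42.7%). Without the 9 members it was 49 of 107, or 45.8%. Of those 107, 3 had a region within 1 kb of a gene end, namely Ifngr1, Ifit1bl1 and Zbp1, beside 3.75% of all protein-coding genes. Zbp1, a sensor of nucleic acids that can trigger cell death, had a 143-base region centred 0.015 kb outside its end (chr2:173218903-173219045). Ifit1bl1 had its 451-base region 0.566 kb from its end. Among ligands and receptors, 4 of 9 had a region, including Ifnb1 at 6.22 kb and Ifng at 22.0 kb. In the signalling list, 5 of 12 had one. Jak2 had one of 143 bases inside the gene, while the inhibitor genes Socs1 and Socs3 were 29.1 and 29.5 kb from theirs.

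Of the 9 interferon regulatory factors, 4 had a region. Among them, beside Irf1, were Irf2 at 28.7 kb and Irf4 at 89.2 kb. Of the 8 genes in the list of immunity-related GTPases, 6 had one, the closest being Irgc1 at 5.13 kb, Tgtp2 at 5.52 kb and Irgm2 at 7.92 kb. Of the 24 other interferon-stimulated genes, 10 had one, among them Ifitm3 at 5.99 kb and Eif2ak2 at 15.1 kb. Of the 8 tryptophan genes, 5 had one, including Afmid, with a 143-base region inside the gene. The class I list had 3 of 13, namely B2m at 11.4 kb, Psmb10 at 21.2 kb and Nlrc5 at 44.7 kb, and none of the 3 was the nearest gene to its region. Both presentation lists, with shares of 27.8% for class II and 23.1% for class I, lay below the 42.7% of all protein-coding genes. The Gbp, IFIT, GTPase and tryptophan lists lay above it, at 62.5% to 100%, and the other 4 lists lay between 41.7% and 44.4%. Neighbouring genes are not independent in such counts. Genes of the Gbp, IFIT and GTPase lists share regions, and 8 class II and 6 class I genes have the same nearest region, at chr17:34373131-34373273. In the GTPase list, Tgtp1, Tgtp2 and Ifi47 were counted through the same region, and Irgm2 and Igtp through another. Of the 8 GTPase genes, 2 were the nearest gene of a region, beside 16.9% of all protein-coding genes.

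Marker genes of antigen-presenting cells and lymphocytes had a region in 4 of 12 cases by the 100 kb rule (all protein-coding genes, 42.7%). None had one within 1 kb of a gene end, where the share of all protein-coding genes was 3.75%, a share at which a list of this size will often hold none. These were Flt3 at 30.9 kb, Cd68 at 31.4 kb, Ptprc at 76.1 kb and Cd8a at 79.2 kb. Only Ptprc, which encodes CD45, was the nearest protein-coding gene to its region. Markers of basal and luminal epithelium had one in 6 of 10 cases, beside the same 42.7%, also with none within 1 kb of a gene end. Among them were Trp63, with regions inside the gene, Krt15 at 10.1 kb and Krt5 at 12.6 kb. These positions stand beside the regions at Cd74 and Ciita, and whether other cells contributed to those was not tested.

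**Figure D5:**
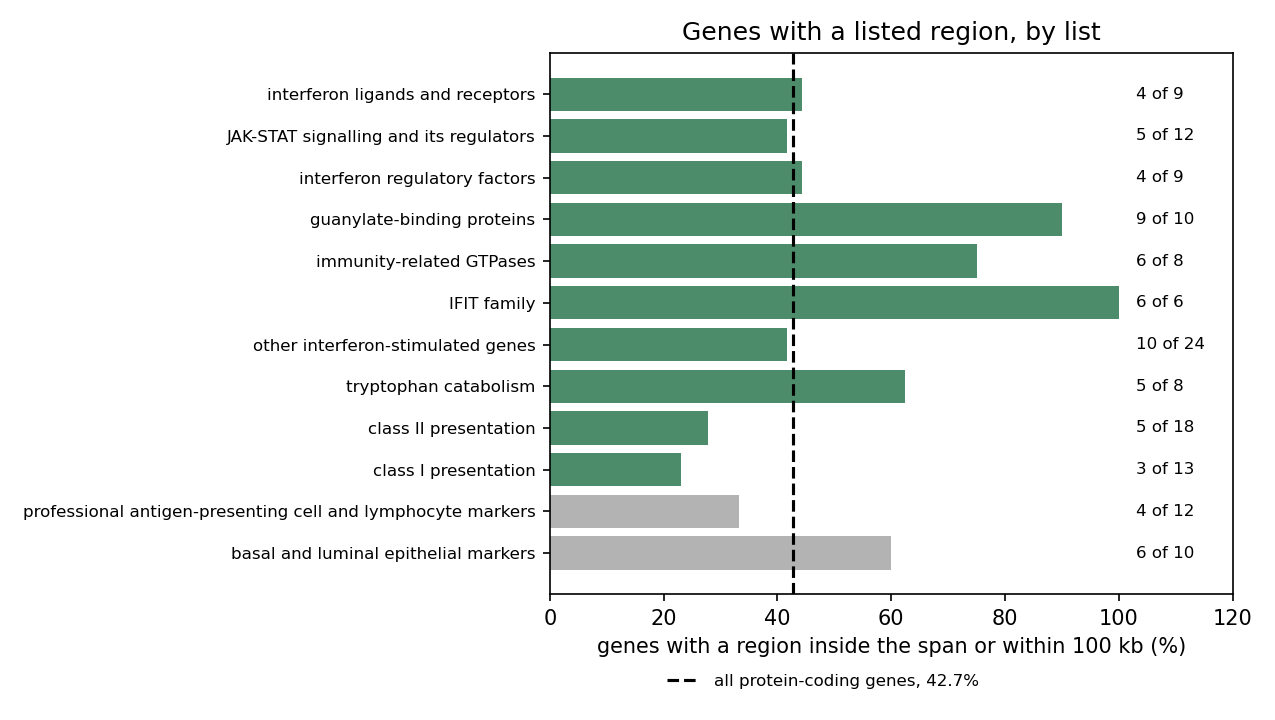
Bars give the percentage of matched genes in each list with a listed region inside the span or within 100 kb, with the count at the right, green for pathway lists and grey for cell type markers. The dashed line is the share of all protein-coding genes, 42.7%. The IFIT and Gbp lists reach 6 of 6 and 9 of 10 with few, shared regions, and the class II and class I lists stand at 5 of 18 and 3 of 13.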

How the data were processed

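Per the submitters' processing notes, the authors worked on build mm10 with HOMER 4.8, BWA 0.7.17-r1188, edgeR and SAMtools. Their order, thresholds and pooling are not given in the sources used here. The deposited list has 3 columns of coordinates, with no signal, fold, p-value or direction. A filter by the authors on signal, fold or significance decides what the list can hold, and duplicates of reads may have been removed, judging by the deposited name alone.

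The file's starts count from 0, and printed starts count from 1. Gene spans were taken from RefSeq (GRCm38.p6, chromosomes 1 to 19, X and Y), a table without strand or exons, so gene ends stand in for start sites unless a RefSeq promoter window gave the strand. All 9 members matched. Gbp11 and Mx2 had no protein-coding match and were left out of their lists. Oas1b matched only as a synonym of Oas1g (gene 23960), and that gene was counted in its place. The nearest gene is the shortest protein-coding gene around a region's centre, or else the closest. No test was made, and no sequence of the regions themselves was read, beyond what lay in promoter windows. Exon, intron and UTR were not told apart.

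Members and lists were chosen with earlier results of these data known. Genes are named if they are members, have a region within 1 kb of a gene end, are among the 4 next closest of a list, or are nearest to a member's region. The next nearest and the non-coding genes were named after their positions were seen. Some genes that the rule selects are left out of the text. The placement and motif code (Python 3.11.15, pandas 2.3.3) was tested on simulated data. In the promoter table, 1670 of 1670 overlapping windows on opposite strands read the same on the forward strand. Other windows, widths and ways of giving regions to genes were tried.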

Additional observations from a re-analysis of the deposited data

How the results depend on the processing

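No paired analysis was possible because values per library are absent from the list, and for the same reason no library could be left out. Motif search in the regions alone was not run for want of a genome sequence. The count of 8 members with a region was also 8 with a window of 50 kb, with any overlap, with the nearest protein-coding gene only, with 143-base regions alone and with regions within 1 kb merged. It was 6 at 10 kb. It fell to 5 with the nearest gene of any type, where non-coding genes took the regions of Irf1, Ido1 and Ciita, and to 2 with 451-base regions alone, which left Ido1 and Ifit2. The 18 regions at members became 7 at 10 kb, 10 with the nearest protein-coding gene, 6 with the nearest gene of any type and 4 with 451-base regions alone. For the pathway lists, 57 genes became 20, 22, 16 and 24 under those settings. The 4 members with a region within 1 kb of a gene end became 2 when start sites alone were used. Ido1 and Cd74 have no promoter window here. The count of 4 became 3 with 143-base regions alone and 1 with 451-base regions alone. Apart from the nearest-gene settings, each setting that lowered a count admits fewer regions, genes or positions by construction. The nearest-gene settings give each region to a single gene, and with any type of gene, non-coding genes compete for the same regions. The count of 4 was unchanged at 0.5 kb and by the nearest edge of the region. At 2.5 kb in place of 1 kb, which admits more, it rose to 6, with Gbp4 and Gbp5 added. Of 72 counts for single members under other settings, 41 were equal to those reported and 31 were lower. Of 96 counts for single lists, 31 were equal and 65 lower. Depth is unknown and sets no stated limit on any count.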
